A study of Mus musculus with 32 samples.

Results

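The subject is 10 genes that move salt and water across the gut wall: Slc9a3, Slc26a3, Slc26a6, Cftr, Slc12a2, Scnn1a, Scnn1b, Scnn1g, Car4 and Aqp8. They were chosen by name, and all 10 were found among the 23236 gene symbols of the deposited tables, with 1 record in each of the 32 libraries. Total RNA was sequenced from dissected mouse digestive tract to compare percc1-/- with wild-type mice. The percc1-/- mice are homozygous for a deletion of 1512 bp on chromosome 17 that leaves a loxP site, made in W4/129S6 embryonic stem cells. Both genotypes are described as a mixed 129SvEv and C57BL/6 background, and the submitters kept the line by sibling breeding.

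The 32 libraries form 16 pairs, each a percc1-/- and a wild-type library matched for region and stage (P, postnatal day). Of these, 7 pairs are small intestine, from its top part (P1, P5 and P15, called upper here) and its bottom part (P1, P5, P10 and P20, called lower). Another 5 are stomach, the whole organ at P1 and P5 and its bottom part at P10, P15 and P20. Large bowel has 3, namely colon with rectum (P1), colon (P5) and rectum (P5), and 1 pair is whole gut at E14.5 (embryonic day). Which animals gave which libraries, and whether 1 animal gave several regions, is not in the labels, so p-values measure only the spread between these libraries, which may be partly technical.

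In the gut, sodium and chloride are taken up by exchangers on the brush border of enterocytes and colonocytes. In the last part of the bowel sodium also enters through the epithelial sodium channel, ENaC, which aldosterone regulates. Crypt cells secrete chloride, which enters the cell from the blood side on a cotransporter and leaves through an apical channel, and water follows. Carbonic anhydrase supplies the bicarbonate and protons that the exchangers trade, and aquaporins let water cross membranes.

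Values are FPKM as deposited, that is, fragments scaled to transcript length and library size, so levels of different genes can be set side by side per length. The tables hold no counts, and the depth of a library is unknown beyond the lower and upper bounds deposited with each FPKM. Differences are on the scale of log2(rescaled FPKM + 1), which compresses differences between low values. They were tested with limma over all genes averaging 1 FPKM or more in the fit, two-sided, and called at an adjusted p (Benjamini and Hochberg) under 0.05. Records with a gene symbol held between 16.8 and 60.2 percent of the FPKM sum of a library. The highest share was in percc1-/- bottom stomach at P15, and the next was 38.1 percent. The symbol Percc1 is on none of the records used, so the genotype labels were not checked through that gene.

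Markers of neighbouring organs were found in many libraries. Of the 9 stomach epithelium markers, the summed level ran from 111 to 873 FPKM in the 10 stomach libraries, from 4.3 to 219 in the 14 small intestine libraries and from 0.95 to 83.4 in the 6 large bowel libraries, and no marker was at 0 throughout a region. The 9 measured markers of exocrine pancreas summed to 140 and 189 FPKM in wild-type upper intestine at P1 and P5, against 10.7 and 24.2 in percc1-/-. The percc1-/- whole gut held lung markers at 35.3 FPKM against 0.454 in wild type, and heart markers at 72.5 against 6.95. Over all, 8 of 16 pairs differed by more than 2 log2 units in the summed level of some other organ's markers. In tissue RNA, fewer cells of a type and less RNA per cell cannot be told apart.

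**Figure D1:**
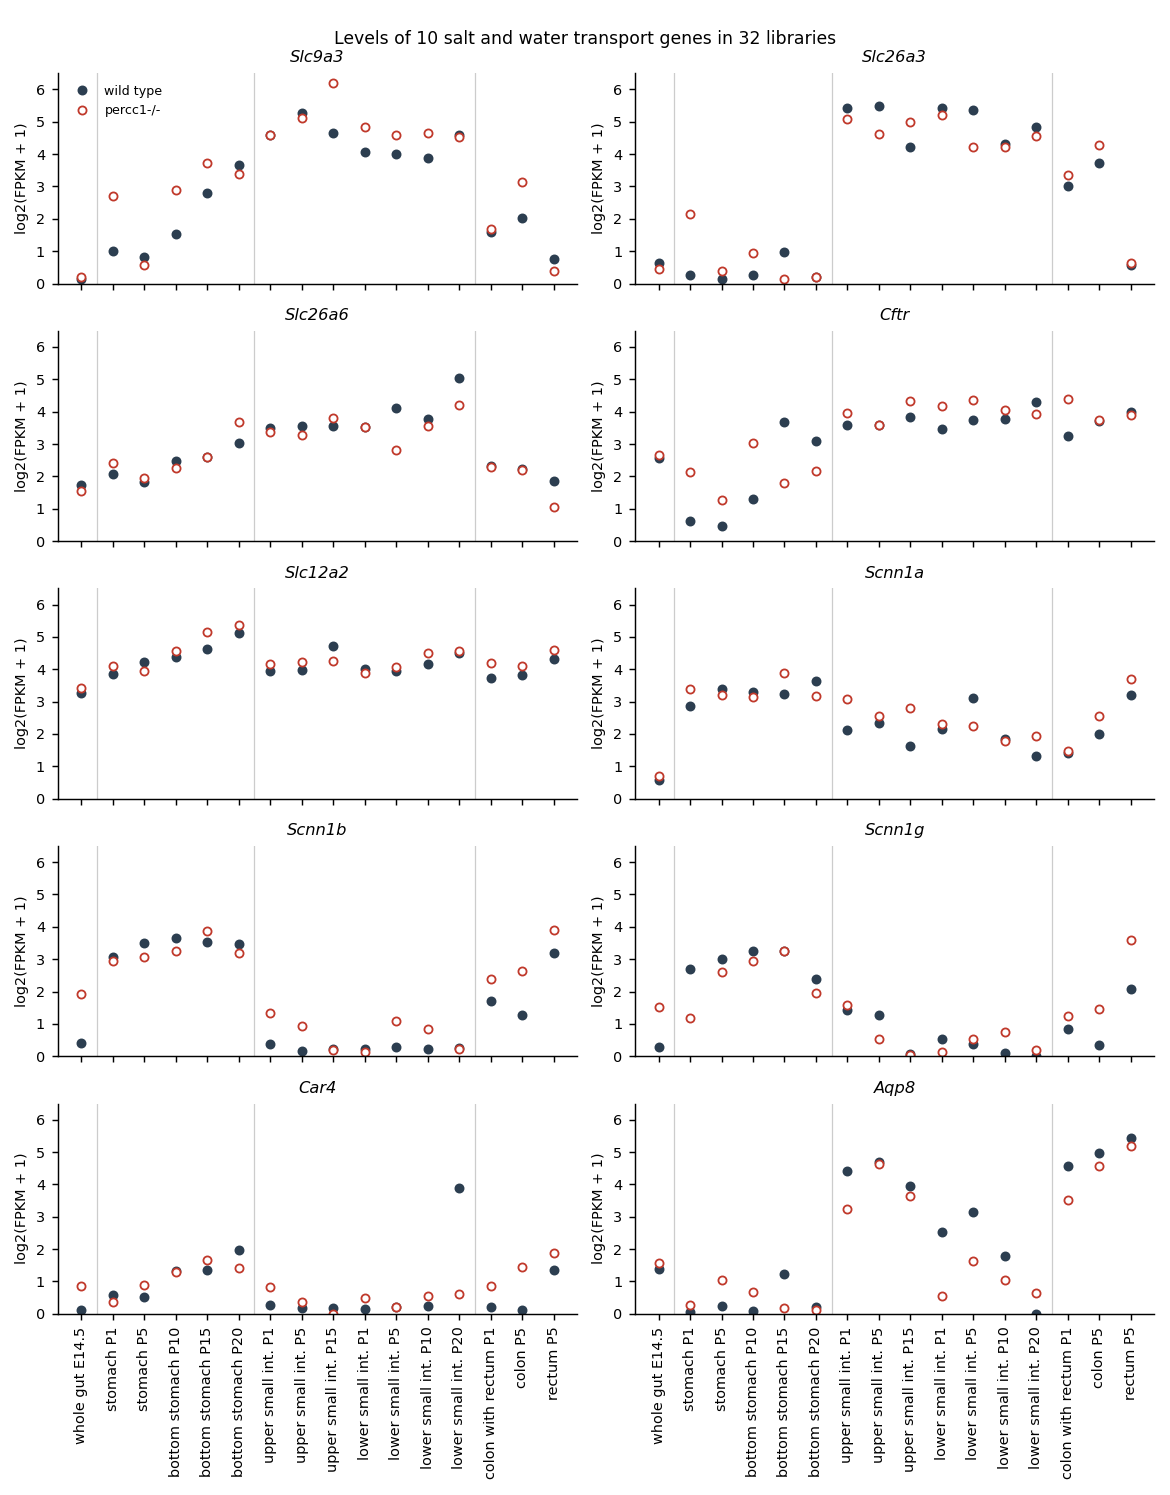
Level of each gene as log2(FPKM + 1), from the deposited FPKM, in 16 pairs of libraries ordered from whole gut to rectum. Filled points are wild type and open points percc1-/-, and grey lines separate whole gut, stomach, small intestine and large bowel. The exchangers Slc9a3 and Slc26a3 are high in small intestine, and Scnn1b is high in stomach and rectum. Slc12a2 is similar between regions at P1 and P5, lower in whole gut and higher in older stomach.

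Several of the 10 genes differed in level between regions at P1 and P5. The exchangers Slc9a3, Slc26a3 and Slc26a6 were highest in small intestine, Cftr was low in stomach and similar in small intestine and large bowel, and the ENaC subunit Scnn1b was high in stomach and large bowel. Aqp8 was high in large bowel and upper small intestine and low in lower small intestine and stomach. For Slc12a2 the ranges of all regions overlapped. One limma fit over the 18 libraries of P1 and P5, with region, stage and genotype as terms, called 5 of the 9 tested members between large bowel and lower small intestine, where 30 percent of all genes tested were called (16 percent higher, 14 percent lower). It called 6 of 9 between stomach and upper small intestine, against 36.8 percent of all genes (19.4 percent higher, 17.4 percent lower), and 1 of 9 between upper and lower small intestine, against 0.0456 percent. Slc12a2, Scnn1a and Scnn1g were called in none of these comparisons. Car4 was below 1 FPKM on average and was not tested there. The members' median difference was -0.07 log2 for large bowel, -1.33 for stomach and 0.10 for upper intestine, beside 0.03, 0.03 and 0.01 over all genes tested.

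**Figure D2:**
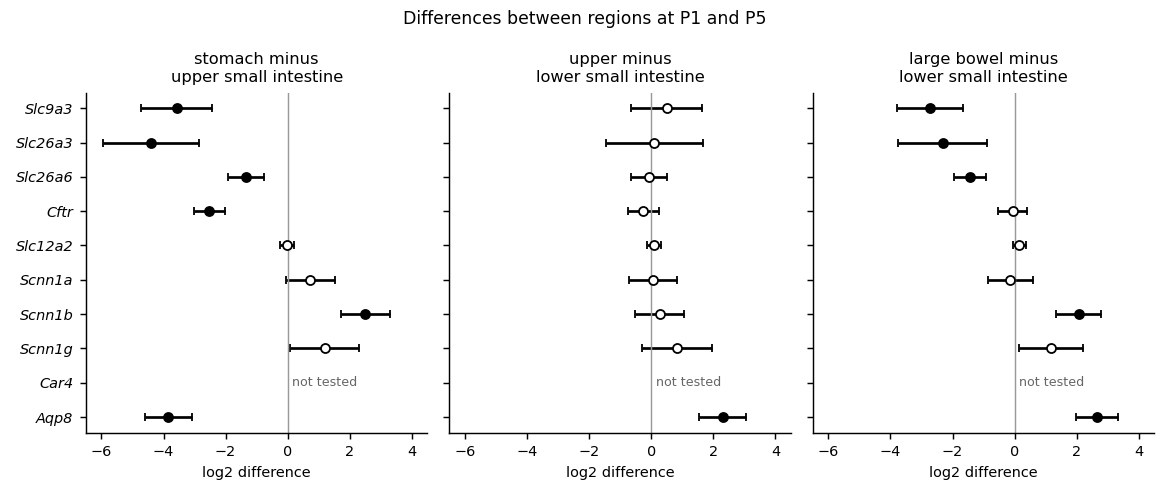
Log2 difference between regions at P1 and P5 from one limma fit over 18 libraries, with its 95% interval. Filled points passed at an adjusted p under 0.05, open points did not. The exchangers lie to the left in both outer panels, Scnn1b lies to the right in both, and Aqp8 changes side.

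Promoters are shown for 4 members called between regions, Slc9a3 and Slc26a3, which were highest in small intestine, Scnn1b and Aqp8, and for Scnn1g, the neighbour of Scnn1b, which passed no regional test. Each is the 250 bases before the RefSeq start on GRCm38.p6, 5′ to 3′. Capitals mark matches, on either strand, to TTTAT (the core bound by Cdx factors of the intestine), CAAAGT (part of the HNF4 site), AGAACA (part of the glucocorticoid response element) and GGGCGG (the Sp1 box), and matches of one motif may overlap.
Slc9a3, chr13:74121163-74121412, plus strand: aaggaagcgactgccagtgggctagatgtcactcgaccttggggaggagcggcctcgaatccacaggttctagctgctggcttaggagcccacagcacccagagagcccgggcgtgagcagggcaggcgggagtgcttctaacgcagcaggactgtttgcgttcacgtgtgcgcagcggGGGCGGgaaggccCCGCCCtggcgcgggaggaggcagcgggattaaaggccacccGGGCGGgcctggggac
Slc26a3, chr12:31437969-31438218, plus strand: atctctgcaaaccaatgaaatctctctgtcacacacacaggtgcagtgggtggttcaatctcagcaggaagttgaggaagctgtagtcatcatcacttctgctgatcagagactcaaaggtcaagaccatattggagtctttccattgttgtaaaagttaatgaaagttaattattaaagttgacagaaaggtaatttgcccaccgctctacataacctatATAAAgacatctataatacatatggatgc
Scnn1b, chr7:121864788-121865037, plus strand: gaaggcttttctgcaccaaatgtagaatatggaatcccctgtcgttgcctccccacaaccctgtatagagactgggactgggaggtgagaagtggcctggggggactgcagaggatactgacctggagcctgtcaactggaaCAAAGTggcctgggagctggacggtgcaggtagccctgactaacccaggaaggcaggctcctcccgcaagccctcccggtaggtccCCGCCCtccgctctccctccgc
Scnn1g, chr7:121734229-121734478, plus strand: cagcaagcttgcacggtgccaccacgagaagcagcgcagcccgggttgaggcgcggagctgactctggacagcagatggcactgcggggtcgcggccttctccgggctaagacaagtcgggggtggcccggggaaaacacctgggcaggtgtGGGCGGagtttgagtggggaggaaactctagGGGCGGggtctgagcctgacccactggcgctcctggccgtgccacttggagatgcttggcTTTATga
Aqp8, chr7:123462044-123462293, plus strand: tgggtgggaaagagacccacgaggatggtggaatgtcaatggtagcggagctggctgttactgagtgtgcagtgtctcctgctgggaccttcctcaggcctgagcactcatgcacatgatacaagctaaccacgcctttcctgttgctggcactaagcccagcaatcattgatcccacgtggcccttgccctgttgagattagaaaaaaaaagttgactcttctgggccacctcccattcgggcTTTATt

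Of the 10 members, 8 promoters were searched. TTTAT occurred in 4 of them, and in 37.3 percent of all 32851 RefSeq promoter windows of that length. Its matches are in Slc26a3, Slc26a6, Scnn1g and Aqp8, genes whose levels differ in their order over the regions. GGGCGG occurred in 5 of 8, against 32.7 percent of all windows, with 3 matches in Slc9a3 and 0 in Slc26a3. CAAAGT occurred in Scnn1b alone of the 8, against 12.6 percent, and AGAACA in 0 of 8, against 16.1 percent. The 250 bases of Slc26a3 were 38.8 percent G and C, against 67.6 percent for Slc9a3 and 65.2 percent for Scnn1g. A match describes letters only and is not evidence of binding.

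Slc9a3 encodes NHE3, the brush border exchanger that takes in sodium for protons. In small intestine it had 13.7, 22.9 and 37.6 FPKM (lowest, median and highest of 7) in wild type, and 21.9, 24 and 72 in percc1-/-. In large bowel it had 2.04 (P1), 3.1 (colon) and 0.688 (rectum) in wild type, and 2.19, 7.72 and 0.305 in percc1-/-. All 6 large bowel libraries were below all 14 of small intestine. At P1 and P5 large bowel was lower than lower small intestine (log2 difference -2.73 ± 0.49, SE, adjusted p = 0.000885, n = 6 and 4 libraries). Stomach was lower than upper small intestine (-3.58 ± 0.54, adjusted p = 9.99e-05, n = 4 and 4), and neither comparison overlapped. Upper and lower intestine overlapped and did not differ by the test (log2 0.50, 95% interval -0.64 to 1.64, adjusted p = 1).

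In wild-type stomach Slc9a3 had 1.01 and 0.769 FPKM in the whole organ at P1 and P5, then 1.92, 5.95 and 11.7 in the bottom part at P10, P15 and P20. In percc1-/- stomach it had 5.57, 0.497, 6.46, 12.2 and 9.48. The deposited bounds were wide for wild type at P10 (0 to 4.21). The older libraries were higher than the younger by 1.52 ± 0.46 log2 (adjusted p = 0.0464, n = 6 and 4), with overlapping ranges. This call was lost when any of 8 of the 10 libraries was left out, the exceptions being wild type at P10 and percc1-/- at P1. The dissected part changes with stage in stomach, so the 2 cannot be told apart. The percc1-/- stomach at P1, which had the high value among the young ones, also held enterocyte markers at 85.7 FPKM against 42.1 in its wild-type partner, and their part in it was not tested. In both libraries of bottom stomach at P15 the Slc9a3 record began at 74223741 or 74223744 on chromosome 13 (mm9), ahead of the annotated gene at 74258963 to 74303512, in the span of Exoc3 on the other strand.

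Slc26a3, also called DRA, takes in chloride for bicarbonate in ileum and colon, and its loss causes chloride-losing diarrhoea in humans. It had 17.5, 40.5 and 43.8 FPKM (lowest, median and highest of 7) in wild-type small intestine, and 17.6, 23.8 and 35.8 in percc1-/-. In colon at P5 it had 12.3 in wild type and 18.5 in percc1-/-, and in colon with rectum at P1 7.09 and 9.14. Rectum at P5 had 0.483 and 0.551, below every other postnatal library outside stomach. Slc26a3 was lower in large bowel than in lower small intestine (-2.32 ± 0.67 log2, adjusted p = 0.0167), with percc1-/- colon above the lowest lower intestine library. Without rectum the difference was -1.40 (adjusted p = 0.0325), without wild-type lower intestine at P5 it did not pass (-2.05, adjusted p = 0.0705), and in wild type alone it did not pass (-2.78, adjusted p = 0.0577).

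In stomach, Slc26a3 was between 0.0974 and 0.981 FPKM in 9 of 10 libraries. The exception was percc1-/- whole stomach at P1 with 3.41, which held more enterocyte markers than its partner, and goblet markers at 35.8 FPKM against 13. More of both markers was held by bottom stomach of percc1-/- at P10 and P15 and of wild type at P15 and P20. Enterocyte markers there were 97.1, 106, 116 and 89.7 FPKM and goblet markers 63, 48.4, 61.9 and 67.1. Slc26a3 in those libraries was 0.928, 0.106, 0.981 and 0.147. The part of these cells in the Slc26a3 values was not tested. Against upper small intestine the stomach was lower (-4.41 ± 0.73 log2, adjusted p = 0.000247), with no overlap. The Slc26a3 records spanned a median of 35423 bases, of the 83047 that the annotation gives.

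Slc26a6, or PAT1, exchanges chloride for bicarbonate and oxalate on the brush border. Its records on chromosome 9 spanned a median of 59007 bases, while the mm9 annotation gives the gene 8105 bases (108756368 to 108764472), so its FPKM may cover more than the annotated gene. It had 10.3, 10.8 and 32 FPKM in wild-type small intestine and 6.1, 10.5 and 17.3 in percc1-/-. In large bowel it lay between 1.08 and 4.02 and in stomach at P1 and P5 between 2.54 and 4.32. Slc26a6 was lower in large bowel than in lower small intestine (-1.44 ± 0.25 log2, adjusted p = 0.000668) and lower in stomach than in upper small intestine (-1.33 ± 0.27, adjusted p = 0.0012), with no overlap in either.

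The 3 exchangers did not all follow the genotype in one direction. Over 16 pairs the difference, percc1-/- minus wild type, was 0.49 ± 0.16 log2 for Slc9a3 (adjusted p = 0.157, higher in 9 of 16 pairs after rescaling), 0.05 ± 0.17 for Slc26a3 (adjusted p = 0.943, higher in 8) and -0.17 ± 0.12 for Slc26a6 (adjusted p = 0.596, lower in 11). The largest Slc9a3 difference in intestine was in upper intestine at P15, with 72 FPKM (deposited bounds not overlapping those of its partner at 23.9), and the largest in stomach was at P1. In small intestine Slc26a3 was lower in 6 of 7 pairs (-0.28, 95% interval -0.69 to 0.13, adjusted p = 0.649), the exception being upper intestine at P15. In large bowel it was higher in 3 of 3 pairs (0.26, adjusted p = 0.621). The difference between these effects was 0.54 log2 (95% interval -0.14 to 1.22, adjusted p = 0.999), so that it was not shown.

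Slc12a2 encodes NKCC1, the basolateral cotransporter that loads sodium, potassium and chloride into secreting cells, and it was the most even of the members. At P1 and P5 its level was 14.9 ± 0.95 FPKM (SD, n = 4) in lower small intestine, 16 ± 1.59 (n = 4) in upper small intestine, 15.4 ± 1.85 (n = 4) in stomach and 16.8 ± 4 (n = 6) in large bowel, with all ranges overlapping. No regional difference passed (largest 0.15 log2, large bowel against lower small intestine, adjusted p = 0.284). Relative to 6 measured epithelial genes, which moved the median of all genes by 0.25 log2 in that comparison and 0.43 in stomach against upper small intestine, Slc12a2 was higher by 0.37 (adjusted p = 0.0307) and 0.39 (adjusted p = 0.0215).

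The level of Slc12a2 was higher in the older libraries of small intestine and stomach. In small intestine the 6 libraries of P10 to P20 had 16.9, 21.9 and 25.6 FPKM (lowest, median and highest) and the 8 of P1 and P5 had 13.7, 15 and 17.8, overlapping at their edges. The rise was 0.45 ± 0.10 log2 (adjusted p = 0.0187), the only call among the 8 tested members in a comparison that called 5.93 percent of all genes (3.47 percent higher). It did not pass without wild-type upper intestine at P15 (0.35, adjusted p = 0.0582), relative to epithelial genes (0.36, adjusted p = 0.103) or in wild type alone (0.61, adjusted p = 0.0852). In stomach the older libraries had 20, 28.8 and 40.3 FPKM (lowest, median and highest of 6) and the 4 younger lay between 13.3 and 17.6, with no overlap. That difference was 0.61 ± 0.18 log2 (adjusted p = 0.0445). Its call was lost when any of 8 of the 10 libraries was left out, the exceptions being both of P10. The older stomach libraries are of the bottom part and the younger of the whole organ, so age and dissected part cannot be told apart. In embryonic whole gut the level was 9.75 in percc1-/- and 8.7 in wild type.

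By genotype, Slc12a2 was higher in percc1-/- in 13 of 16 pairs after rescaling, with a mean of 0.16 ± 0.06 log2 (95% interval 0.04 to 0.28, adjusted p = 0.21). Large bowel gave 17.4 against 12.2, 16.3 against 13 and 23.1 against 18.9 FPKM, a difference of 0.30 ± 0.08 in 3 of 3 pairs (adjusted p = 0.421). The strongest fall was in upper intestine at P15, with 18.1 against 25.6. Without that pair the mean over the other 15 was 0.20 log2 and passed (adjusted p = 0.0276).

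Cftr is the apical chloride channel of crypt cells, whose loss causes cystic fibrosis. In small intestine it had 10.1, 12.4 and 18.5 FPKM (lowest, median and highest of 7) in wild type and 11.2, 15.6 and 19.4 in percc1-/-. Large bowel had 8.51, 12.1 and 14.8 in wild type and 20, 12.4 and 13.9 in percc1-/-, within the range of small intestine for all but the wild-type P1 and the percc1-/- P1 library. The difference between large bowel and lower small intestine was -0.07 log2 (95% interval -0.53 to 0.39, adjusted p = 0.847). Stomach was lower than upper small intestine (-2.53 ± 0.24 log2, adjusted p = 1.73e-06, no overlap).

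Stomach was also where Cftr varied most between partners. At P1, P5 and P10 percc1-/- had 3.37, 1.43 and 7.15 FPKM against 0.536, 0.396 and 1.45 in wild type, and at P15 and P20 it had 2.47 and 3.51 against 12 and 7.49. The first 3 pairs were higher and the last 2 lower in percc1-/-, so the mean of 0.28 log2 had a 95% interval of -1.03 to 1.59 (adjusted p = 1). The deposited bounds were wide for percc1-/- at P5 (0 to 3.89) and wild type at P20 (3.01 to 11.97). In small intestine Cftr was higher in percc1-/- in 6 of 7 pairs (0.33 ± 0.14, adjusted p = 0.473). Its record overlaps Gm15595 on its own strand and Gm15592 on the other.

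The ENaC channel is made of an alpha, a beta and a gamma subunit, from Scnn1a, Scnn1b and Scnn1g. Scnn1b and Scnn1g lie side by side on mm9 chromosome 7, at 129008591 to 129062029 and 128877993 to 128911989, both on the plus strand. Scnn1b overlaps Cog7 on the other strand. In small intestine the alpha subunit was the highest of the 3 in range. Scnn1a lay between 1.5 and 7.74 FPKM over 14 libraries, Scnn1b between 0.0874 and 1.51 and Scnn1g up to 2.02, with 1 library listed at 0. In stomach all 3 were found, with 6.31 to 13.8, 6.76 to 13.7 and 1.26 to 8.53 FPKM over 10 libraries.

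Scnn1b had 0.165, 0.213, 0.292 and 0.12 FPKM in wild-type lower (P1, P5) and upper (P1, P5) intestine, and 7.32 and 10.4 in wild-type stomach at those ages. In percc1-/- it had 0.0874, 1.12, 1.51 and 0.909 in intestine and 6.76 and 7.31 in stomach. Every stomach library exceeded every small intestine library. Stomach was higher than upper small intestine by 2.49 ± 0.37 log2 (adjusted p = 9.69e-05), and large bowel was higher than lower small intestine by 2.07 ± 0.34 (adjusted p = 0.000493), also with no overlap.

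The larger small intestine values coincided in part with markers of stomach and its squamous lining. Percc1-/- lower intestine at P5 held 59.7 FPKM of 4 measured squamous markers and 48.2 of stomach markers, against 1.82 and 8.57 in its partner. Percc1-/- upper intestine at P1 held 14.7 and 219, against 2.56 and 105. Percc1-/- upper intestine at P5 had 0.909 FPKM of Scnn1b with 2.12 of squamous and 4.3 of stomach markers, against 0.12 of Scnn1b with 1.75 and 98.2 in its partner. Percc1-/- lower intestine at P10 had 0.799 FPKM of Scnn1b with 2.42 of squamous and 37.6 of stomach markers. Its partner had 0.17 with 5.63 and 43.9. Percc1-/- lower intestine at P1 had 0.0874 of Scnn1b with 5.47 and 11.9, against 0.165 with 2.03 and 5.96. The part of these markers' cells in the Scnn1b values was not tested.

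Scnn1g had 5.48, 7.08, 8.51, 8.46 and 4.26 FPKM in wild-type stomach at P1, P5, P10, P15 and P20, and 1.26, 5.08, 6.74, 8.53 and 2.87 in percc1-/-. After rescaling it was lower in percc1-/- in 5 of 5 pairs, with a mean of -0.51 ± 0.20 log2 (adjusted p = 0.988). The Scnn1g pair of P1 was at -1.43 and the other 4 were between -0.31 and -0.24, and without the P1 pair the mean was -0.27 (adjusted p = 1). That percc1-/- library held stomach epithelium markers at 111 FPKM against 307, and enterocyte markers at 85.7 against 42.1, and their part in the value was not tested. At P15 the deposited values were nearly equal. Stomach against upper small intestine was 1.19 ± 0.53 log2 (adjusted p = 0.0905) and overlapped. It passed without percc1-/- rectum (1.19, adjusted p = 0.0223), without rectum of both genotypes (1.19, adjusted p = 0.018) and without percc1-/- stomach at P1 (1.58, adjusted p = 0.0347). Scnn1a, 0.73 ± 0.37 higher in stomach (adjusted p = 0.135), passed without rectum (0.73, adjusted p = 0.0416).

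Within the large bowel, rectum stood apart from colon in ENaC, the exchangers, Slc12a2 and Aqp8. Scnn1a had 8.2 and 11.9 FPKM in wild-type and percc1-/- rectum at P5, against 3.01 and 4.85 in colon at P5 and 1.68 and 1.75 in colon with rectum at P1. Scnn1b had 8.05 and 13.8 in rectum against 1.43 and 5.19 in colon and 2.26 and 4.2 at P1. Scnn1g had 3.23 and 11 in rectum against 0.281 and 1.76 and then 0.8 and 1.35. For each subunit both rectum libraries were above all 4 other large bowel libraries. Slc26a3, Slc9a3 and Slc26a6 had the opposite order, and both rectum libraries were below the other 4. For Slc12a2 and Aqp8 both rectum libraries were again above the other 4. How many of all genes set rectum apart in this way was not counted. With 1 library per genotype, the difference between colon and rectum was described and not tested. Enterocyte markers were lower in rectum too, at 79.9 and 58.3 FPKM against 107 and 130 in colon at P5, while colonocyte markers were 131 and 161 against 116 and 116. Stomach epithelium markers were at 2.16 and 0.95 FPKM in rectum.

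**Figure D3:**
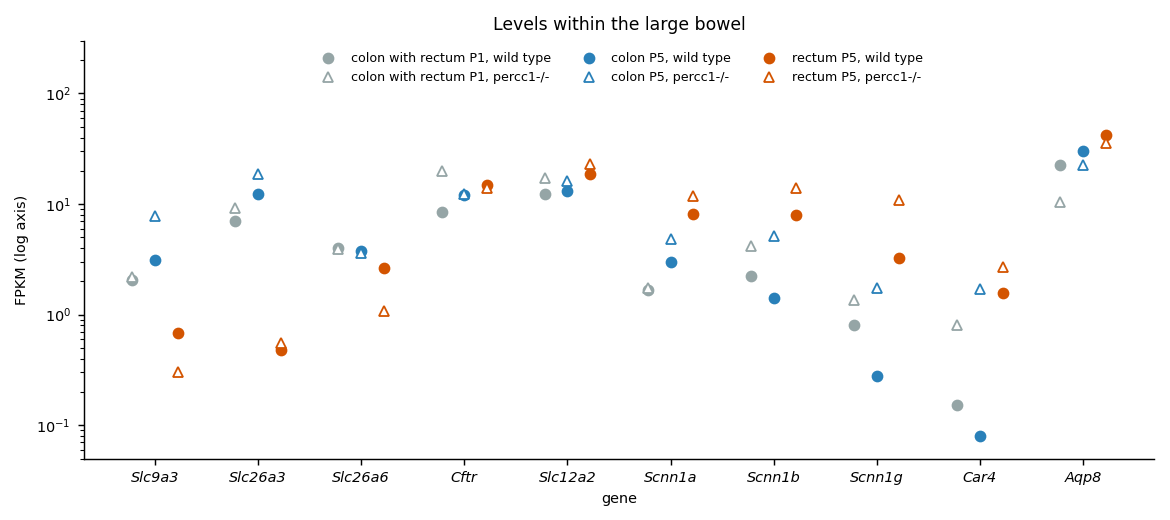
Deposited FPKM of each gene in the 6 large bowel libraries on a log axis, by dissected part and stage, with filled circles for wild type and open triangles for percc1-/-. Rectum lies below colon for Slc9a3, Slc26a3 and Slc26a6 and above it for Slc12a2, Scnn1a, Scnn1b, Scnn1g and Aqp8.

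By genotype, all 3 large bowel pairs had more Scnn1b and Scnn1g in percc1-/-. The difference was 0.88 ± 0.20 log2 for Scnn1b (adjusted p = 0.404) and 0.99 ± 0.26 for Scnn1g (adjusted p = 0.421), and neither passed. Limma called 0 of 10 members in large bowel, where 0.015 percent of all genes were called, while 5 of 10 members and 1331 of 13369 genes had an unadjusted p under 0.05. Without the colon pair, in which percc1-/- held 83.4 FPKM of stomach markers against 9.93, the differences were 0.65 and 0.91 (adjusted p = 0.692 for each), over 2 pairs. The deposited bounds of Scnn1b overlapped between partners at P1 (1.87 to 6.54 and 0.23 to 4.28) and did not in colon or rectum at P5.

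The genotype effect on Scnn1g was 0.99 ± 0.31 log2 larger in large bowel than in small intestine (95% interval 0.30 to 1.67, unadjusted p = 0.0087, adjusted p = 0.999). Scnn1g averaged 0.559 FPKM in small intestine, too low to be tested there alone, and 3.06 in large bowel. The log2 scale used compresses differences between such low values, so this comparison cannot show that the effect differs between the regions. Over all 16 pairs Scnn1b was 0.40 ± 0.14 higher in percc1-/- (adjusted p = 0.182, higher in 10), Scnn1a 0.25 ± 0.12 higher (adjusted p = 0.377, higher in 10) and Scnn1g 0.10 ± 0.17 higher (adjusted p = 0.854, higher in 8). In embryonic whole gut, percc1-/- had 2.77 and 1.88 FPKM of Scnn1b and Scnn1g against 0.328 and 0.213. ENaC subunits are also made in lung, and that library held the lung markers named above. The part of those cells in the difference was not tested. Without the 8 pairs whose partners differed by more than 2 log2 units in another organ's markers, the Scnn1b difference was 0.16 (adjusted p = 0.649). The pairs kept were not free of such markers.

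Car4 is a carbonic anhydrase anchored on the outer face of the apical membrane. It was low in most of the gut at these ages, at or under 0.775 FPKM in 13 of 14 small intestine libraries, 1 of them listed at 0. The other was wild-type lower intestine at P20, with 13.8 FPKM (deposited bounds 11.9 to 15.6) against 0.52 (0.18 to 0.86) in its percc1-/- partner. No other small intestine pair was of P20, so the value has no further library of its age beside it. In that pair 4 measured liver markers were 2.37 log2 higher in percc1-/-, and the lowest sum, 0.88 FPKM, was in wild type, while enterocyte markers differed by -0.22 log2. In stomach Car4 had 0.283 to 0.846 FPKM in 4 whole-organ libraries of P1 and P5. The 6 of the bottom part at P10 to P20 had 1.46 to 2.94, without overlap. That difference was 0.78 ± 0.17 log2 (adjusted p = 0.0149), and age and dissected part cannot be told apart in it. It did not pass relative to epithelial genes (0.43, adjusted p = 0.128) or in wild type alone (0.90, adjusted p = 0.12). With Slc9a3 and Slc12a2, Car4 made 3 of 8 tested members called between older and younger stomach libraries, all higher. That comparison called 17.1 percent of all genes (8.07 percent higher, 9.07 percent lower).

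In large bowel Car4 had 0.813, 1.72 and 2.71 FPKM in percc1-/- (P1, colon and rectum at P5) and 0.152, 0.0801 and 1.56 in wild type. It was higher in percc1-/- in 3 of 3 pairs (0.85 ± 0.24, adjusted p = 0.421). The ranges of the genotypes overlapped through wild-type rectum.

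Aqp8 is a water channel of the colonic surface and of exocrine pancreas. Large bowel had 22.5, 30.2 and 42.3 FPKM in wild type (P1, colon and rectum at P5) and 10.5, 22.5 and 35.4 in percc1-/-. Upper small intestine had 20.3, 24.9 and 14.6 in wild type (P1, P5 and P15) and 8.45, 23.9 and 11.6 in percc1-/-. Lower small intestine had 4.81, 7.84 and 2.45 in wild type (P1, P5 and P10, and listed at 0 at P20) and 0.461, 2.13, 1.07 and 0.547 in percc1-/- at the 4 stages. Every upper library was above every lower one at all ages. At P1 and P5 large bowel exceeded lower small intestine by 2.65 ± 0.33 log2 (adjusted p = 7.68e-05) and stomach was lower than upper small intestine (-3.85 ± 0.35, adjusted p = 1.68e-06).

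Upper small intestine exceeded lower by 2.30 ± 0.35 log2 (adjusted p = 0.0367, n = 4 and 4, no overlap), 1 of 6 genes called in that comparison. The difference was 1.51 with a pseudocount of 5 and 2.77 with one of 0.1, the extremes over the alternatives. The call was lost with a pseudocount of 0.1 (adjusted p = 0.202) and without rectum (adjusted p = 0.0947). It was also lost without any 1 of 9 libraries, which were both of colon at P5, percc1-/- colon with rectum at P1, wild-type rectum, percc1-/- lower intestine at P5, wild-type upper intestine at P1, both of upper intestine at P5 and wild-type stomach at P1 (adjusted p from 0.0512 to 0.151). In wild type alone it passed (1.76, adjusted p = 0.0064). In upper intestine at P1, percc1-/- had 8.45 FPKM of Aqp8 with 10.7 of pancreas markers, and wild type 20.3 with 140. At P5 percc1-/- had 23.9 with 24.2 of pancreas markers, and wild type 24.9 with 189. The part of pancreas in the Aqp8 values was not tested.

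By genotype, Aqp8 had the largest negative mean of the members. It was -0.39 ± 0.19 log2 over 16 pairs (95% interval -0.78 to 0.000828, adjusted p = 0.378, lower in 10 of 16), -0.72 ± 0.28 in small intestine (adjusted p = 0.44, lower in 5 of 7 after rescaling) and -0.62 ± 0.20 in large bowel (adjusted p = 0.461, lower in 3 of 3). The largest differences were in lower intestine, with 0.461 against 4.81 FPKM at P1 and 2.13 against 7.84 at P5. None of these passed. Without the 4 small intestine pairs whose partners differed by more than 2 log2 units in another organ's markers, the difference there was -1.04 (adjusted p = 0.584). From P1 to P5 Aqp8 changed by 0.78 ± 0.24 log2 (adjusted p = 0.155). Between those stages limma called 0 of 9 members, where 0.372 percent of all genes were called (0.266 percent higher, 0.106 percent lower). There 1 member had an unadjusted p under 0.05, against 1829 of 13171 genes.

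**Figure D4:**
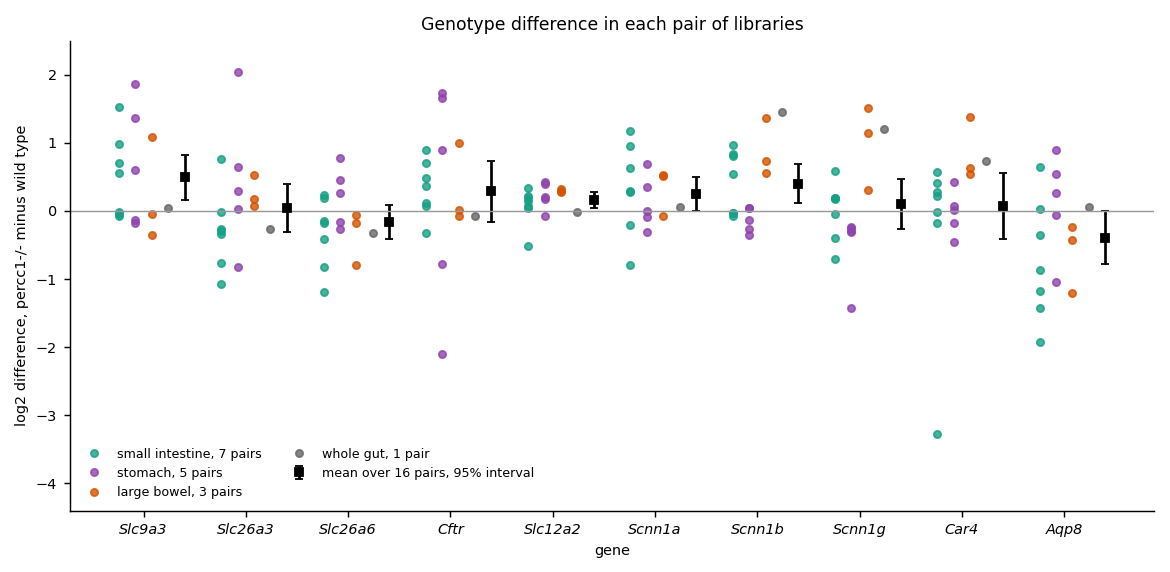
Log2 difference in rescaled FPKM + 1, percc1-/- minus wild type, of each gene in each of 16 pairs, coloured by region, with the limma mean over all pairs and its 95% interval as a black square. The points of most genes lie on both sides of 0. Slc12a2 lies closest together, and 13 of its 16 points are above 0.

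Across the 10 genes limma called no member by genotype. It called 0 of 10 over all pairs, where 0.887 percent of all genes were called (0.39 percent higher, 0.497 percent lower), and 4 of 10 members had an unadjusted p under 0.05, against 1727 of 13084 genes. It called 0 of 8 in small intestine (0.117 percent of all genes, 0.0391 higher and 0.0783 lower). There 3 members had an unadjusted p under 0.05, against 1286 of 12772 genes. In stomach it called 0 of 8 (0.0226 percent, 0.00754 higher and 0.0151 lower), and 2 members were under 0.05 unadjusted, against 610 of 13266 genes. In those fits Scnn1b and Scnn1g in small intestine, and Slc26a3 and Aqp8 in stomach, were below the mean of 1 FPKM. For the difference of the effect between regions or ages limma called 0 of 10, 0 of 10 and 0 of 8 members, with 0.00776, 0.0153 and 0 percent of all genes called. An unadjusted p under 0.05 was found for 1, 1 and 0 members, against 548 of 12881, 612 of 13047 and 749 of 12772 genes. A p that misses the threshold does not show that levels were equal, and the 95% interval over all pairs still allowed Slc9a3 up to 0.83 log2 higher and Aqp8 down to 0.78 lower.

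The wider set of salt and water genes, 82 genes of textbook role, gave the setting. By genotype 0 of 75 tested were called over all pairs, where 0.887 percent of all genes tested were called. Between large bowel and lower small intestine 16 of 71 were higher and 10 lower, where 16 percent of all genes tested were called higher and 14 percent lower. The largest rises were Car1 and Car2, cytosolic carbonic anhydrases (4.45 ± 0.63 and 2.65 ± 0.31 log2), Atp12a, the colonic proton and potassium pump (4.02 ± 0.66), and Best2, a bicarbonate channel of goblet cells (2.56 ± 0.38), with adjusted p of 0.000171, 6.73e-05, 0.000484 and 0.000262. The largest falls were Prkg2, a cGMP kinase that acts on Cftr and Slc9a3 (-2.31, adjusted p = 0.00618), Pdzk1, a scaffold of the brush border exchangers (-2.07, adjusted p = 0.00308), Adora2b, an adenosine receptor (-1.95, adjusted p = 0.000242), and Aqp11 (-1.77, adjusted p = 0.000199). The median of the set was 0.00 log2, beside 0.03 over all genes.

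Between stomach and upper small intestine 14 of 71 genes of the wider set were higher and 20 lower, where 19.4 percent of all genes tested were called higher and 17.4 percent lower. The highest were the gastric acid pump subunits Atp4a and Atp4b (3.72 ± 0.86 and 3.65 ± 0.83 log2, adjusted p = 0.00324 and 0.00275), the chloride channel Slc26a9 (2.70, adjusted p = 0.00037) and Aqp3 (2.64, adjusted p = 0.000604). The lowest were Prkg2 (-3.96), uroguanylin Guca2b (-3.57), its receptor Gucy2c (-3.29) and Clca3 (-3.24), with adjusted p of 0.000137, 1.65e-05, 6.36e-07 and 3.06e-05. Upper against lower small intestine called 0 of 71, where 0.0456 percent of all genes tested were called.

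With age, small intestine called 7 of 67 genes of the wider set higher and 4 lower, where 3.47 percent of all genes tested were called higher and 2.47 percent lower. Car3 (2.2 ± 0.45 log2), the potassium channel Kcnn4 (1.82 ± 0.34), Clca2 (1.43) and Clca4 (1.21) led the rises, with adjusted p of 0.0148, 0.0107, 0.00577 and 0.00369. Adora2b (-1.35), Prss8, a protease that activates ENaC (-0.82), Aqp11 (-0.76) and Prkg2 (-0.70) were lower, with adjusted p of 0.00699, 0.0202, 0.00369 and 0.0407. Kcnn4 was also the 1 gene of 71 called from P1 to P5 (1.30 ± 0.22, adjusted p = 0.0254), where 0.372 percent of all genes tested were called. In stomach the older libraries are of the bottom part and the younger of the whole organ, so age and dissected part cannot be told apart. There 20 of 72 were higher in the older libraries and 5 lower, where 8.07 percent of all genes tested were called higher and 9.07 percent lower. The rises were led by Clca3 (2.60), Kcne3 (2.35), Aqp5 (2.11) and Car3 (2.03) with adjusted p of 0.0122, 0.000361, 0.00277 and 0.00906, with Car12 (-1.59), Aqp9 (-1.39), Clca1 (-1.08) and Kcnma1 (-0.70) the lowest.

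As a description over the 30 postnatal libraries, which share tissue makeup and pairs, Scnn1b and Scnn1g followed each other (Pearson r = 0.89 of log2 rescaled FPKM + 1) and ran opposite to Slc26a3 (r = -0.93 and -0.85). Slc9a3 followed Slc26a6 (0.83) and Slc26a3 (0.76), and Cftr followed Slc26a3 (0.72). Slc12a2 and Car4 had no r beyond 0.47 with any other member. Among 8801 genes averaging 5 FPKM or more, the pattern most like Slc26a3 was that of Gm7092 (0.987), then Clec2e (0.985) and Prkg2 (0.982). Most like Cftr was Cldn2 (0.911), most like Slc9a3 Fmo5 (0.92), and most like Slc26a6 Slc43a2 (0.894). Both Scnn1b and Scnn1g had Ly6g6e first (0.96 and 0.921) and Vsig1 next (0.952 and 0.903). The highest were lower for Slc12a2 (Pura, 0.838), Aqp8 (Mab21l2, 0.796), Car4 (Gsr, 0.794) and Scnn1a (Pcx, 0.788).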

How the data were processed

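Stranded total RNA libraries (Ribo-Zero depletion of ribosomal RNA, per the labels' protocols) were analysed in 32 samples. For every sample the deposited table lists FPKM per gene with lower and upper bounds, per the file headers. The submitters' processing notes name the build mm9 and, as tools, Cufflinks 2.2.1, TopHat2 2.0.13 and SAMtools 0.1.18. No source used here gives the annotation's version. The files hold no counts, so no count test was run and no counting interval is given. An FPKM listed as 0 was not read as absence.

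Records with a symbol were used, and genes missing or failed in a library left that fit. All 10 members had 1 unmerged record of status OK in every library. Each library was divided by a median-ratio factor, taken from genes above 1 FPKM in all libraries (factors 0.864 to 1.378). Tests used limma 3.58.1 in R 4.3.3, with trended and robust variance, on log2(rescaled FPKM + 1), for genes averaging 1 FPKM or more in the fit. Genotype fits had the pair as a block, since each pair shares region and stage by its labels. Region and stage fits had region or part, stage and genotype as terms. Intervals are 95% and use limma's moderated degrees of freedom. The fit was tested on simulated data with known changes. Promoters came from RefSeq (GRCm38.p6), with 8 of 10 members used.

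The members, the wider set and the marker lists were chosen with earlier results of these data known. Members were tested in every comparison in which they averaged 1 FPKM or more, and the text does not give each of these values. Of the wider set, up to 4 called genes each way are named, largest change first. For likeness, the first 1 to 3 genes by Pearson correlation are named. Alternatives were other pseudocounts (0.1 and 5), no filter, no rescaling, centring on epithelial genes, leaving out each library or pair, wild type only and no block. Leaving out rectum, and the pairs whose partners differed by over 2 log2 units in another organ's markers, were chosen after seeing the data.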

Additional observations from a re-analysis of the deposited data

Results flagged for a closer look

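A value was marked where it lay far from the others of its region and genotype by Dixon's criterion, among 40 groups of 5 or 7 libraries. Chance marks about 1 in 20 groups, and these groups mix stages and parts, which can set a value apart. In all 13 values were marked.

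Wild-type lower intestine at P20 gave 3 of them. Car4 had 13.8 FPKM against 0.102 to 0.196 in the other 6 wild-type small intestine libraries, Slc26a6 had 32 against 10.3 to 16.3, and Cftr had 18.5 against 10.1 to 13.2. In small intestine Slc9a3 also stood apart at 72 in percc1-/- upper intestine at P15 (others 21.9 to 33.3) and at 37.6 in wild-type upper intestine at P5 (others 13.7 to 23.9). Scnn1a had 7.74 in wild-type lower intestine at P5 (others 1.5 to 4.06), and Scnn1g had 2.02 in percc1-/- upper intestine at P1 (others 0.0242 to 0.687).

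The bottom part of the stomach at P15 gave 4 values. Aqp8 had 1.36 FPKM and Slc26a3 0.981 in wild type (others 0.0393 to 0.173 and 0.0974 to 0.209), and Scnn1a had 13.8 and Scnn1b 13.7 in percc1-/- (others 7.87 to 9.55 and 6.76 to 8.44). These are FPKM as deposited, and that percc1-/- library had the largest scaling factor, 1.378, so its rescaled values are lower. After rescaling its difference from its partner was 0.35 log2 for Scnn1a and 0.04 for Scnn1b. Slc26a3 had 3.41 in percc1-/- whole stomach at P1 (others 0.106 to 0.928), and Slc26a6 had 11.9 in percc1-/- bottom stomach at P20 (others 2.83 to 5.03).

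The pair differences of Scnn1g had opposite signs in 2 regions, and limma called neither (adjusted p = 0.421 in large bowel and 0.988 in stomach). All 3 large bowel pairs were higher in percc1-/- (median 1.14 log2, 0.31 to 1.51) and all 5 stomach pairs were lower (median -0.29, -1.43 to -0.24). The difference between these 2 regions was not tested.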

How the results depend on the processing

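In the genotype comparisons every alternative left 0 members called, with 1 exception: over all pairs, leaving out 1 pair at a time gave 0 to 1 called. The pair whose loss gave the 1 is upper intestine at P15 (Slc12a2). Without the replicate block, that is, without the pairing, limma called 0 members over all pairs, in small intestine, in stomach and in large bowel, and 22 genes over all pairs against 116 with it. Over all pairs 6 member values, none of them called, changed sign under some alternative.

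Upper against lower small intestine called 1 member, 0 with a pseudocount of 0.1, 0 without rectum and 0 to 1 with 1 library left out. Large bowel against lower small intestine called 4 to 6 members with 1 library left out. Scnn1g passed there with a pseudocount of 0.1 (2.18), relative to epithelial genes (1.39) and without wild-type colon (1.43). Stomach against upper small intestine called 6 to 7 with 1 library left out, and relative to epithelial genes Slc12a2 reversed from -0.02 to 0.388, while Scnn1a (1.13) and Scnn1g (1.60) passed. For age in small intestine 1 member was called, 0 to 2 with 1 library left out, 0 in wild type only. For age in stomach, where the dissected part changes too, 3 were called. The count was 0 relative to epithelial genes, 1 with no filter, 0 in wild type only and 1 to 3 with 1 library left out. The causes were not tested.

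With no counts, the depth behind low values is known only through deposited bounds. Single libraries per region, stage and genotype limit every stage comparison.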
